A study of Rattus norvegicus with 6 samples.

Results

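The genes described here are the integrins, the laminins and the nidogens in the rat heart primordium just before and just after the first heartbeats. Members were the genes whose symbol on the array begins as those of integrin alpha or beta chains or of laminin alpha, beta or gamma chains, or is Nid1 or Nid2, and each gene was represented by its brightest probe. This rule found 34 of the 19297 genes with a symbol or locus name on the array, with 43 of its 30367 probes. Of the 34 genes, 21 encode integrin chains, 8 encode laminin chains and 2 encode nidogens, whereas the other 3 (Itgb1bp1, Itgb1bp2 and Itgb3bp) are named for binding an integrin and are not integrins themselves. Chains whose symbols the rule did not find on the array, such as Itgav, Itga3 and Lama4, were not analysed here.

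Integrins are receptors in the cell membrane, each made of an alpha and a beta chain, that hold cells to the extracellular matrix and pass signals and force to the actin cytoskeleton. Laminins are trimers of an alpha, a beta and a gamma chain that form the sheet on which a basement membrane is built, and nidogens join this sheet to the type IV collagen network. In the early heart, the myocardial epithelium and the endocardium each rest on a basement membrane with cardiac jelly between them.

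Heart primordia were taken on embryonic day 10 from embryos of the strain labelled Wister rat (Wistar in the study's methods). No genetic change or treatment is named for either group. The central shape of the primordium was flat in the pre-heartbeat group and raised in the post-heartbeat group, so the groups were set by morphology, and the heart fields were not separated. The study also defined the groups by somite number, in adjoining ranges of which the post-heartbeat range was the higher. Developmental stage and heartbeat therefore cannot be told apart here. Each group had 3 samples with 1 array each. No source used here states whether primordia were pooled for RNA or came from separate litters, so that p-values measure the spread between these samples. Pre-heartbeat 1, post-heartbeat 1 and post-heartbeat 2 were hybridized on 1 slide, and pre-heartbeat 2, pre-heartbeat 3 and post-heartbeat 3 on another, which was scanned separately. Signals are given on the log2 scale relative to the 75th percentile of each array, and a value of 0 is the signal at that percentile. Signals of different probes are not comparable as levels. A probe was tested if either group had it well above background on each of its 3 arrays, which held for 19299 probes. As a check of the tissue, all 16 cardiac muscle markers were tested, with a mean signal over the list between 2.55 and 2.92 on pre-heartbeat arrays and between 3.66 and 3.73 on post-heartbeat arrays. Among other tissues, means overlapped between the groups in several lists: endothelial markers (13 of 14 tested) lay between −1.35 and −1.15, yolk sac endoderm (10 of 12) between −0.32 and 1.16, definitive endoderm (8 of 10) between 0.24 and 0.71, and paraxial mesoderm (6 of 12) between −1.60 and −0.09. Within these lists, 3 of 13 endothelial, 2 of 10 yolk sac endoderm and 0 of 8 definitive endoderm markers were higher after heartbeat initiation. For paraxial mesoderm 5 of 6 were higher, and over all tested probes 44.7% were. The means did not overlap for neural ectoderm and for megakaryocytes and platelets, whose values stand beside Itgb8 and Itga2.

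Most integrin and laminin genes differed little between the groups, and the difference farthest from its error was that of Itgb1bp2, a muscle protein that binds integrin beta 1, which was 2.17 fold higher after heartbeat initiation. Of the 34 members, 23 were tested, and 0 of them passed an adjusted p of 0.05 in limma, a threshold that 0.14% of all tested probes passed, 0.119% as higher and 0.0207% as lower after heartbeat initiation. At an unadjusted limma p of 0.05, 3 members passed (Itgb1bp2, Nid2 and Itgb8), where the share over all tested probes was 7.01%, and 0 passed when the Tukey HSD test of the study's methods was adjusted by the Benjamini-Hochberg method. The selection of those methods asks for at least 1.5 fold and for p under 0.05, unadjusted, by Tukey HSD. It took 1 member as higher (Itgb1bp2) and 0 as lower. The same selection took 1.89% of all tested probes as higher and 1.15% as lower.

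The difference, post-heartbeat minus pre-heartbeat, was above 0 for 14 tested members and below 0 for 9, and 44.7% of all tested probes were above 0. The median difference was 0.09 for the tested members and −0.033 for all tested probes. In size, 20 of 23 (87%) were under 0.5 on the log2 scale, near the 89.3% of all tested probes. The arrays of the groups did not overlap for 5 members (Lama1, Lamb2, Lamc1, Nid2 and Itgb1bp2), or 21.7%, where all tested probes gave 11.5%. For 11 members (47.8%) the slides differed by more than the groups did, which was so for 70.7% of all tested probes. Fewer cells of a type and less RNA per cell cannot be told apart in these whole primordia.

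**Figure D1:**
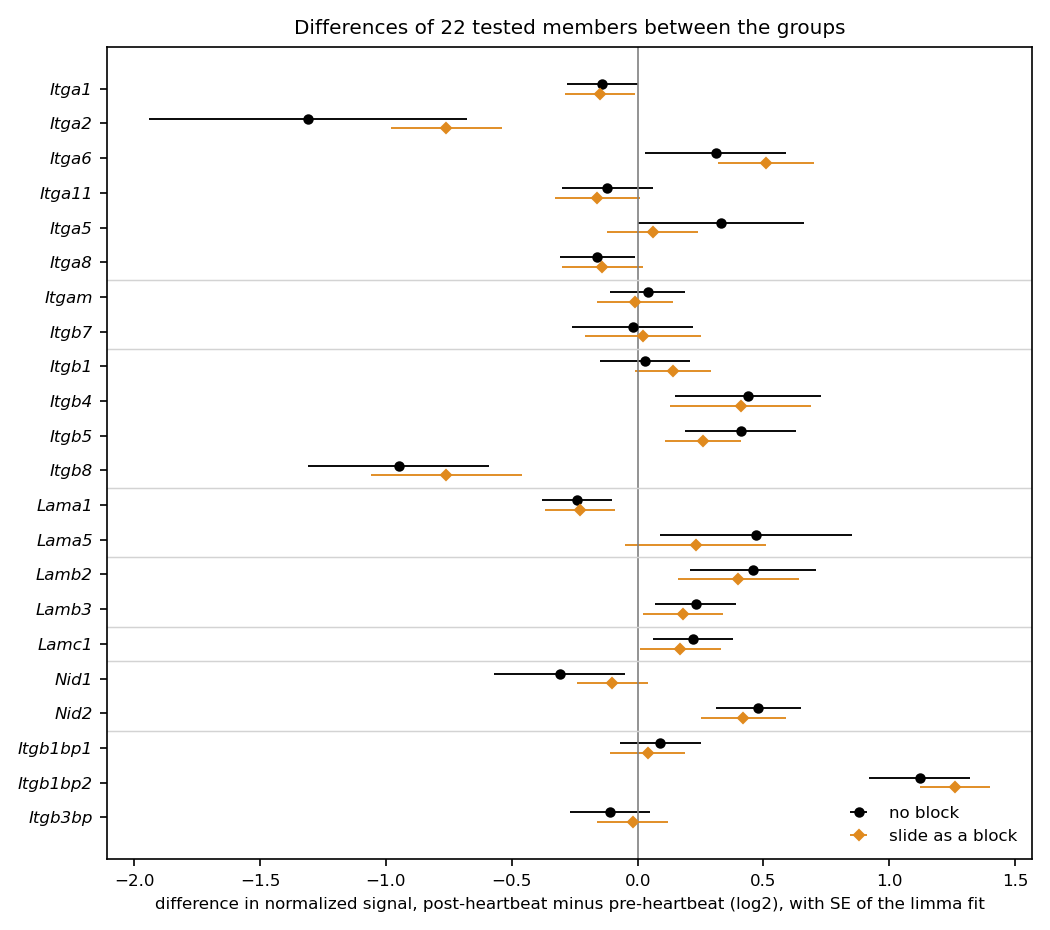
Difference in normalized signal between the groups (x axis, log2, post-heartbeat minus pre-heartbeat) for 22 of the 23 tested members (y axis), with bars for the SE of the limma fit, without a block (black) and with the slide as a block (orange). Itgb1bp2 lies farthest to the right at 1.12, Itga2 and Itgb8 lie farthest to the left at −1.31 and −0.95, and the other 19 lie within 0.5 of 0.

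Among the laminin chains, 5 of the 6 tested were above 0 and 1 was below, where 44.7% of all tested probes were above 0. The median difference was 0.23, with a range from −0.24 to 0.47, and none of the chains had an adjusted p under 0.866 in limma. Lama1, the alpha chain of the laminin of the earliest embryonic basement membranes, was the 1 chain below 0. Its signal was −1.09, −1.17 and −0.97 on pre-heartbeat arrays 1 to 3 and −1.25, −1.43 and −1.28 on post-heartbeat arrays 1 to 3. The groups did not overlap, but they lay close together. The means were −1.08 ± 0.10 and −1.32 ± 0.099 (SD, n = 3 each), a difference of −0.24 (SE 0.14, limma adjusted p = 0.866). It was −0.25 within the first slide and −0.21 within the second. Lama5, an alpha chain widespread in epithelial and vascular basement membranes, was at −0.32, −1.67 and −0.57 before and at −0.03, −0.30 and −0.82 after heartbeat initiation. Its groups overlapped, and pre-heartbeat 2 was the lowest array. The difference of 0.47 (SE 0.38, limma adjusted p = 0.866) was smaller in size than that between the slides, which was −0.80 (second minus first), and was 0.23 with the slide as a block.

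Lamb2, a beta chain known from synaptic and kidney basement membranes, was at −1.58, −2.36 and −1.44 on pre-heartbeat arrays and at −1.37, −1.30 and −1.34 on post-heartbeat arrays. The post-heartbeat arrays were close together and all above the pre-heartbeat arrays, of which pre-heartbeat 2 was well below the others. The difference was 0.46 (SE 0.25), with a limma adjusted p of 0.866, and it was 0.25 within the first slide and 0.56 within the second. Without pre-heartbeat 2 the difference of Lamb2 was 0.18, and that of Lama5 was 0.07. Lamc1, the gamma chain shared by most laminins, was at 1.71, 1.30 and 1.68 before and at 1.86, 1.76 and 1.74 after heartbeat initiation. Its groups did not overlap but nearly touched, with a difference of 0.22 (SE 0.16, limma adjusted p = 0.866), and its other probe differed by 0.19 (SE 0.14). Without pre-heartbeat 2 the difference of Lamc1 was 0.09. Lamb3, a chain of the laminin that anchors stratified epithelia, was at −2.96, −3.10 and −2.78 before and at −2.65, −2.57 and −2.92 after heartbeat initiation. Its groups overlapped, with a difference of 0.23 (SE 0.16) and a limma adjusted p of 0.866. Parietal endoderm of the yolk sac is a known rich source of laminin, and all 8 of its markers were tested. Their mean was −1.63, −2.46 and −2.15 on pre-heartbeat arrays and −1.55, −2.06 and −2.40 on post-heartbeat arrays. These groups overlapped, and pre-heartbeat 2 was the lowest array here as it was for Lama5, Lamb2 and Lamc1. It was also the lowest for several other lists, such as ligands and basement membrane (−1.21) and paraxial mesoderm (−1.60). For others, such as cardiac muscle (2.88) and definitive endoderm (0.71), it was not. Post-heartbeat 3 was nearly as low for the parietal endoderm markers. Among the post-heartbeat arrays it was the lowest for Lama5 (−0.82) and, narrowly, for Lamc1 (1.74), and it was not for Lamb2 (−1.34). The part of this tissue in the laminin differences was not tested.

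Lama2, the alpha chain of muscle laminin, and Lamc3 were not well above background on any array. Laminin beta 1, the usual partner of the alpha 1 and gamma 1 chains, was not found by the rule, because its probe carries a transcript identifier in place of a symbol. It was therefore not counted among the members, and its probe (chr6:49182887-49182946, rn4) was chosen for its description. It was at 3.02, 2.95 and 3.08 before and at 3.0, 3.08 and 3.14 after heartbeat initiation, a difference of 0.06 (SE 0.13, limma adjusted p = 0.905) with overlapping groups.

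The nidogens differed in direction, although neither difference passed the limma threshold. Nid2 was at 0.88, 0.53 and 0.98 on pre-heartbeat arrays and at 1.44, 1.24 and 1.15 on post-heartbeat arrays (probe at chr15:4801457-4801516, rn4). All post-heartbeat arrays were above all pre-heartbeat arrays. Mean Nid2 signal was 0.80 ± 0.24 and 1.28 ± 0.15 (SD, n = 3 each), a difference of 0.48 (SE 0.17) or 1.39 fold, with an unadjusted limma p of 0.028 and an adjusted p of 0.580. The exact two-sided permutation test gave p = 0.1, the smallest that 3 arrays against 3 allow. The difference was 0.46 within the first slide and 0.39 within the second. A second, dimmer Nid2 probe (chr15:4840358-4840417) did not share this pattern, as its groups overlapped and its difference was 0.09 (SE 0.22, limma adjusted p = 0.915). The mean of the Nid2 probes differed by 0.28. A further probe, no member by the rule and described on the array as similar to nidogen 2 (LOC302022), differed by 0.08 (SE 0.14, limma adjusted p = 0.887) with overlapping groups. Whether the Nid2 probes differ from each other in response was not tested. Nid1 was at −1.98, −1.21 and −1.50 before and at −2.10, −2.06 and −1.45 after heartbeat initiation. Its difference of −0.31 (SE 0.26, limma adjusted p = 0.866) was −0.10 with the slide as a block.

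**Figure D2:**
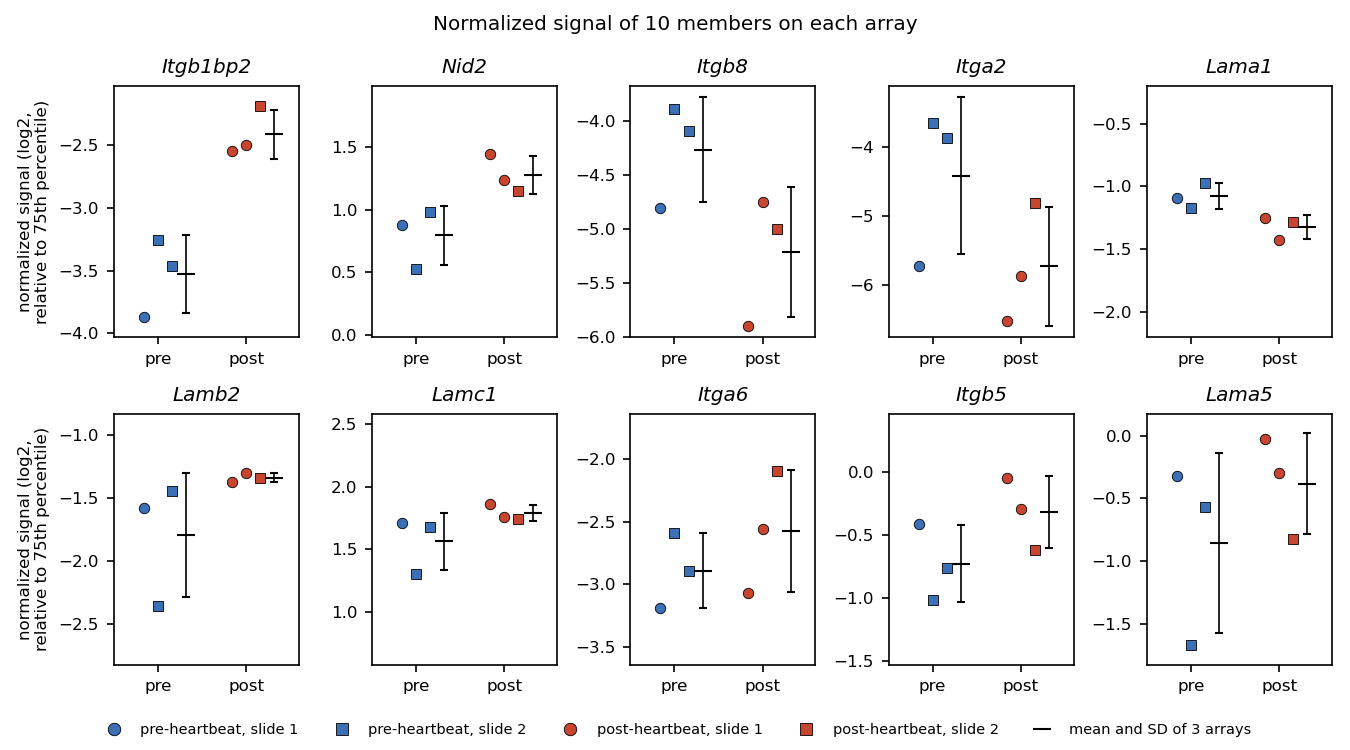
Normalized signal (y axis, log2, minus the 75th percentile of its array) of 10 members on the 3 pre-heartbeat (blue) and 3 post-heartbeat (red) arrays, with circles for the first slide, squares for the second and the mean with SD of each group as black bars; panels start at different values and span 2 log2 units or more. The groups are separate for Itgb1bp2, Nid2, Lama1, Lamb2 and Lamc1 and overlap for Itgb8, Itga2, Itga6, Itgb5 and Lama5.

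The 21 integrin chains showed no shared direction. Of the 12 tested, 6 were above 0 and 6 below, with a median difference of 0 and a range from −1.31 to 0.44. The groups did not overlap for 0 of them. Over all tested probes, 44.7% were above 0 and 11.5% had groups that did not overlap. The alpha chains that bind collagen or laminin were tested for Itga1, Itga2, Itga6 and Itga11. Itga6, which forms laminin receptors with integrin beta 1 or beta 4, was at −3.19, −2.59 and −2.89 before and at −3.07, −2.56 and −2.10 after heartbeat initiation. The groups overlapped, and on each slide the post-heartbeat arrays were on average above the pre-heartbeat arrays. The difference was 0.31 (SE 0.28, limma adjusted p = 0.866), and blocking on the slide it was 0.51 (SE 0.19, adjusted p = 0.382). Itga1, a collagen receptor that also binds laminin, was at −2.64, −2.88 and −2.64 before and at −2.88, −2.88 and −2.81 after, a difference of −0.14 (SE 0.14) with a limma adjusted p of 0.866.

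Itga2, a collagen receptor of epithelia and platelets, had the lowest difference of the members and was chosen for this after its values were seen. Its signal was −5.72, −3.66 and −3.87 on pre-heartbeat arrays and −6.51, −5.86 and −4.81 on post-heartbeat arrays, of which 2 were well above background. The groups overlapped, and within each group the array or arrays on the second slide were the highest. The difference was −1.31 (SE 0.63, limma adjusted p = 0.813), and blocking on the slide it was −0.76 (SE 0.22, adjusted p = 0.197), while the slides differed by 1.91 (second minus first). Of 10 markers of megakaryocytes and platelets 5 were tested, with a mean between −4.35 and −3.87 before and between −3.85 and −3.65 after heartbeat initiation, so that the groups did not overlap. The median difference of these 5 markers was 0.41, and 4 other markers of the list were not well above background on any array. The part of such cells in the difference of Itga2 was not tested. Itga11, a collagen receptor of mesenchymal cells, differed by −0.12 (SE 0.18). Itga7, the laminin receptor chain of muscle, was not well above background on any array, and Itga10, a collagen receptor of cartilage, was well above background on 1 array.

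Of the alpha chains that bind fibronectin or the RGD sequence, Itga5, which with integrin beta 1 is the main fibronectin receptor, was at −3.06, −3.86 and −3.46 before and at −2.63, −2.98 and −3.79 after heartbeat initiation. The groups overlapped, and the post-heartbeat array on the second slide was among the lowest. The difference of 0.33 (SE 0.33, limma adjusted p = 0.866) was 0.06 with the slide as a block, and the slides differed by −0.81 (second minus first). Itga8, a receptor for nephronectin, differed by −0.16 (SE 0.15). A second, far dimmer Itga8 probe was well above background on 1 array of each group and was not tested. Itga4, a receptor for fibronectin and Vcam1, was well above background on 2 pre-heartbeat arrays and 1 post-heartbeat array and was not tested.

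Integrin beta 1, the partner of most alpha chains above, was measured by a pair of probes. The brighter Itgb1 probe (chr19:58600532-58600591, rn4) was at 0.97, 1.53 and 1.24 on pre-heartbeat arrays and at 1.14, 1.27 and 1.43 on post-heartbeat arrays. The post-heartbeat values lay inside the pre-heartbeat range, with a difference of 0.03 (SE 0.18, limma adjusted p = 0.962). The other Itgb1 probe, at chr19:58611137-58611196, was at −0.04, 0.82 and 1.15 before and at 0.05, 0.02 and 1.30 after heartbeat initiation. Here the arrays followed the slide: the 3 arrays of the first slide were between −0.04 and 0.05, and those of the second between 0.82 and 1.30. Its group difference was −0.18 (SE 0.43, limma adjusted p = 0.909), and 0.20 with the slide as a block. The sequence of this slide-dependent probe is shown, in lower case throughout.
Itgb1, probe at chr19:58611137-58611196: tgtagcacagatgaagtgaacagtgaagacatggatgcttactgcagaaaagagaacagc

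Among the other beta chains, Itgb5, which pairs with the alpha v chain as a vitronectin receptor, was at −0.41, −1.02 and −0.76 before and at −0.05, −0.29 and −0.62 after heartbeat initiation. The groups overlapped, with a difference of 0.41 (SE 0.22, limma adjusted p = 0.863) that was 0.26 with the slide as a block. Its second probe differed by 0.43 (SE 0.22), so that both Itgb5 probes gave a like difference. Itgb4, the beta chain of hemidesmosomes in epithelia, was at −4.56, −5.44 and −4.34 before and at −4.45, −4.31 and −4.25 after, a difference of 0.44 (SE 0.29) with a limma adjusted p of 0.866. The post-heartbeat arrays were close together, and pre-heartbeat 2 was the lowest of all, without which the difference of Itgb4 was 0.11. Itgb3, the beta chain of the platelet fibrinogen receptor and of a vitronectin receptor, was well above background on 2 arrays of each group, and Itgb6, an epithelial chain, on none.

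Itgb8, the chain that with alpha v activates latent TGF-beta, was the 1 integrin chain with an unadjusted limma p under 0.05. It was at −4.81, −3.89 and −4.09 on pre-heartbeat arrays and at −5.90, −4.75 and −5.0 on post-heartbeat arrays. The groups overlapped by 1 pre-heartbeat array, pre-heartbeat 1, which lay just below post-heartbeat 2. Mean Itgb8 signal was −4.26 ± 0.48 and −5.22 ± 0.61 (SD, n = 3 each), a difference of −0.95 (SE 0.36) or 1.94 fold, with an unadjusted limma p of 0.0328, an adjusted p of 0.618 and an exact permutation p of 0.2. It was −0.51 within the first slide and −1.01 within the second, and the slides differed by 0.83. Without post-heartbeat 1 it was −0.61. Of 12 neural ectoderm markers, 10 were on the array, 4 were tested and 4 were not well above background on any array. The mean signal of the 4 tested markers was between −1.93 and −0.96 on pre-heartbeat arrays and between −3.33 and −2.32 on post-heartbeat arrays. This gap came from 2 of the 4, as Otx2 differed by −1.56 and Lmx1a, well above background on 3 pre-heartbeat arrays and 1 post-heartbeat array, by −3.66, whereas Sox2 differed by −0.21 and Zic2 by 0.13. The part of such tissue in the Itgb8 difference was not tested. The Itgb8 probe is printed because it is the integrin chain with the lowest unadjusted p, and the capitals mark TAA, a stop codon at the end of a frame of this probe that holds no earlier stop.
Itgb8, probe at chr6:146494978-146495037: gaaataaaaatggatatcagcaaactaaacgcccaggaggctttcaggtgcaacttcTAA

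The integrins of leukocytes were at or near background apart from 1 probe. Itgae, Itgal, Itgax and Itgb2 were not well above background on any array, and Itgb7, the beta chain of lymphocyte homing receptors, was dim and differed by −0.02 (SE 0.24). Itgam, the alpha chain of the complement receptor of macrophages and neutrophils, had a probe (chr1:187385524-187385583, rn4) that was well above background on all 6 arrays. This probe was at −2.57, −2.52 and −2.79 before and at −2.44, −2.56 and −2.76 after heartbeat initiation, with a difference of 0.04 (SE 0.15, limma adjusted p = 0.947). The other Itgam probe (chr1:187385032-187385565) was not well above background on any array, with values from −8.31 to −7.79. The sequences are shown because these probes overlap and yet gave such different signals. The capitals mark the 34 bases they share.
Itgam, bright probe: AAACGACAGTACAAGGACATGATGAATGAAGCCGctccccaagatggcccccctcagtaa
Itgam, dim probe: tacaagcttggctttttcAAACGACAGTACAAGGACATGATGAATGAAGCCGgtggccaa
Itgb2, the only beta chain with which Itgam is known to pair, was not well above background on any array. Of 12 leukocyte markers, 8 were well above background on all 6 arrays, among them the macrophage markers Cd68, Csf1r, Cd14 and Aif1, and the other 4 on none, among them Ptprc, a marker of all leukocytes, and Spi1. Over the 8 tested, the mean signal was between −3.94 and −3.82 on pre-heartbeat arrays and between −4.09 and −3.94 on post-heartbeat arrays. What the bright Itgam probe detected was not tested.

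**Figure D3:**
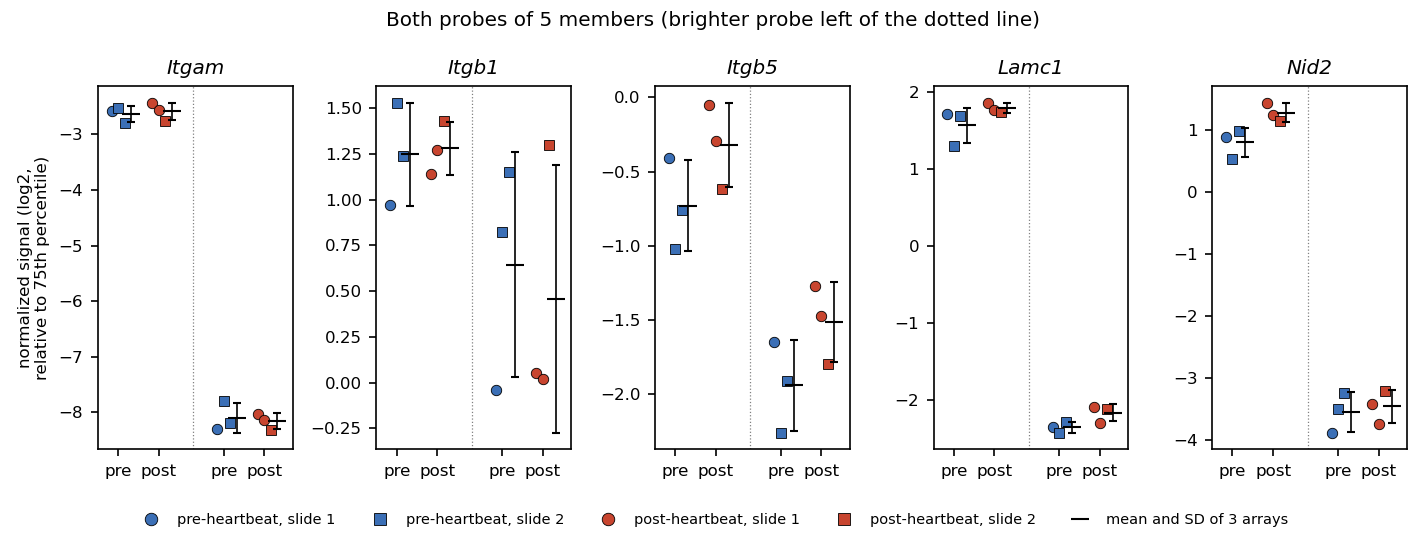
Normalized signal (y axis, log2, minus the 75th percentile of its array) of both probes of 5 members, the brighter to the left of the dotted line, on pre-heartbeat (blue) and post-heartbeat (red) arrays, with circles and squares for the first and second slide and black bars for the mean and SD of 3 arrays. The dim Itgam probe lies between −8.31 and −7.79, and the second Itgb1 probe lies between −0.04 and 0.05 on the first slide and between 0.82 and 1.30 on the second.

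The 11 members that were not tested had signals from −8.36 to −5.03, and 8 of them were not well above background on any array. The dimmest signal that was well above background on an array lay between −7.38 and −6.77. This is not a limit for each probe. Itga10 was at −6.54, −6.42 and −6.70 on pre-heartbeat arrays and was well above background on 0 of them.

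Of the proteins named for binding an integrin, Itgb1bp2 encodes melusin, a protein of striated muscle that binds the cytoplasmic tail of integrin beta 1. Its signal was −3.87, −3.26 and −3.46 on pre-heartbeat arrays 1 to 3 and −2.55, −2.50 and −2.19 on post-heartbeat arrays 1 to 3. Every post-heartbeat array was above every pre-heartbeat array, and the gap was wider than the range within either group. Mean signal was −3.53 ± 0.31 and −2.41 ± 0.20 (SD, n = 3 each), a difference of 1.12 (SE 0.20) or 2.17 fold, with an unadjusted limma p of 0.000867 and an adjusted p of 0.120. The exact permutation p was 0.1, the smallest possible. The difference was 1.34 within the first slide and 1.18 within the second. With the slide as a block it was 1.26 (SE 0.14, limma adjusted p = 0.00994), and Itgb1bp2 was then the 1 member past the threshold, which 1.62% of all tested probes passed in that fit, 1.16% as higher. The probe is shown because it gave the highest difference, and it spans more of the genome than its own length, so that it crosses at least 1 intron.
Itgb1bp2, probe at chrX:89521471-89523294: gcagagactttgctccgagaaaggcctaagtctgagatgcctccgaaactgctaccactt

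The difference of Itgb1bp2 went with those of the cardiac muscle markers. All 16 of these were above 0, with a median difference of 0.65, where 44.7% of all tested probes were above 0. The methods' selection took 8 of the 16 as higher, beside 1.89% of all tested probes. The part of a larger share of muscle cells in the difference of Itgb1bp2 was not tested. The other genes of this kind stayed near 0. Itgb1bp1, which also binds the tail of integrin beta 1, differed by 0.09 (SE 0.16), and Itgb3bp, a protein also known from kinetochores, by −0.11 (SE 0.16).

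Genes that work with the members were described from lists, written with earlier results of these data known. Of 40 ligands of integrins and basement membrane genes, 27 were tested. The methods' selection took 0 in either direction, beside 1.89% of all tested probes as higher and 1.15% as lower. Of the 27 tested, 17 were above 0 (44.7% of all tested probes were), and the median difference was 0.09. The groups did not overlap for 3 (11.1%), close to the 11.5% of all tested probes. In limma 0 passed the adjusted threshold, and 3 had an unadjusted p under 0.05 (7.01% of all tested probes did). The adjusted Tukey HSD test passed 0.

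Of 48 genes of the integrin adhesion complex, the proteins that link integrin tails to actin, 42 were tested, 31 were above 0 (44.7% of all tested probes were) and the median difference was 0.14. The groups did not overlap for 6 (14.3%), beside 11.5% of all tested probes. In limma 0 passed the adjusted threshold, 4 had an unadjusted p under 0.05 (7.01% of all tested probes did), and 0 passed the adjusted Tukey HSD test, as did 0 of all tested probes. The methods' selection took 2 as higher and 1 as lower, beside 1.89% and 1.15% of all tested probes. Flnc, the filamin of striated muscle, was at −1.0, −1.72 and −1.01 before and at −0.21, −0.53 and −0.53 after heartbeat initiation, a difference of 0.82 (SE 0.23, limma adjusted p = 0.356). Tgfb1i1, a paxillin-like adaptor also called Hic-5, was at −3.45, −3.29 and −2.88 before and at −2.64, −2.41 and −2.56 after, a difference of 0.67 (SE 0.19, limma adjusted p = 0.338). The groups did not overlap for either gene. Both left the selection when pre-heartbeat 1, pre-heartbeat 2 or any post-heartbeat array was left out. Fermt1, the kindlin of epithelia that activates integrins, was lower, at −2.22, −2.47 and −2.44 before and at −3.16, −2.95 and −3.08 after heartbeat initiation. The Fermt1 groups were well apart, with a difference of −0.69 (SE 0.14, limma adjusted p = 0.178) that became −0.73 (adjusted p = 0.0488) when the slide was a block. The part of epithelial tissue in the Fermt1 difference was not tested.

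Of 14 other laminin receptors and their partners, 12 were tested, 7 were above 0 (44.7% of all tested probes were) and the median difference was 0.04. Averaged over the list, pre-heartbeat arrays lay between −0.70 and −0.59 and post-heartbeat arrays between −0.51 and −0.46, so that the groups did not overlap. This mean includes Sgca, which had the highest difference of the list at 1.40, and the mean without Sgca was not computed. In limma 0 passed the adjusted threshold, 1 had an unadjusted p under 0.05 (7.01% of all tested probes did), and 0 passed the adjusted Tukey HSD test. The methods' selection took 1 gene as higher and 0 as lower, beside 1.89% and 1.15% of all tested probes. The 1 gene was Sgca, a sarcoglycan of striated muscle in the dystrophin complex. It was at −5.34, −5.04 and −4.66 before and at −4.07, −3.76 and −3.03 after heartbeat initiation, so that the groups did not overlap. The difference was 1.40 (SE 0.30, limma adjusted p = 0.192), and blocking on the slide it was 1.63 (adjusted p = 0.00994). Without pre-heartbeat 1, pre-heartbeat 2 or post-heartbeat 2 the selection held 0 genes of this list. The share of muscle in the differences of Flnc and Sgca was not tested.

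**Figure D4:**
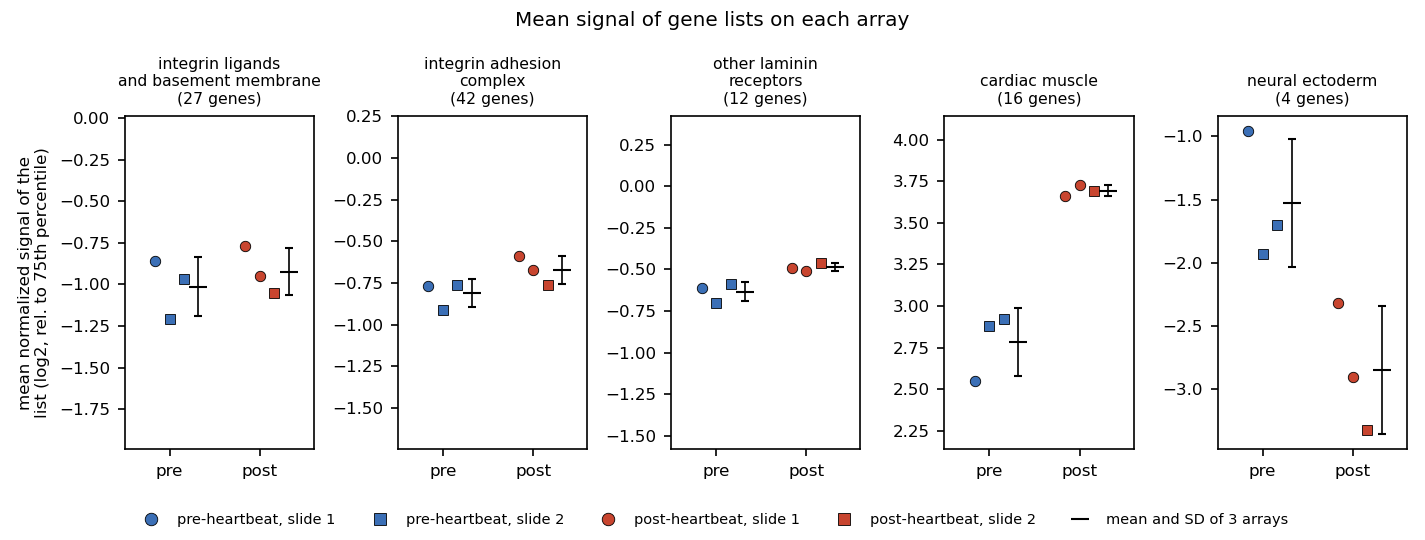
Mean normalized signal (y axis, log2, minus the 75th percentile of its array) over the tested genes of 5 lists on pre-heartbeat (blue) and post-heartbeat (red) arrays, with circles and squares for the first and second slide and black bars for the mean and SD of 3 arrays; panels start at different values and span 2 log2 units or more. The ligands and basement membrane genes overlap between the groups, the other laminin receptors lie between −0.70 and −0.59 before and between −0.51 and −0.46 after heartbeat initiation without overlap, and the cardiac muscle and neural ectoderm markers are far apart between the groups. Among the other laminin receptors, Sgca had the highest difference (1.40), beside a list median of 0.04.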

How the data were processed

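RNA of rat heart primordia was amplified, labeled with cyanine 3 and hybridized to 1-color Agilent arrays, 1 for each of 6 samples. The authors quantified the arrays with Agilent Feature Extraction 10.7.3.1, as the submitters' processing notes state, and deposited the processed intensity of each spot, background-subtracted but without normalization between arrays. A table of linear ratios by the authors, shifted to the 75th percentile and divided by a baseline per probe, was deposited too. Its log2 differences between arrays were within 0.05 of those computed here for 100% of 30367 probes. Positions are those of the array annotation (rn4).

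Control spots and outlier spots were left out, the 75th percentile over the 58717 spots other than controls (between 1145.76 and 1701.98 intensity units) was subtracted on the log2 scale, and spots were averaged for each probe. Between 39375 and 41327 spots per array were well above background, and 0 were saturated. The number of arrays limits the precision. Groups were compared with limma 3.58.1 in R 4.3.3 (files read with data.table, version 1.17.8) over all 19299 tested probes, with Benjamini-Hochberg adjustment and a threshold of 0.05. The Tukey HSD selection of the methods and a two-sided exact permutation test (10 splits of the 6 arrays) were added for single genes. The procedure was tested on simulated data.

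Members and lists were chosen with earlier results of these data known. Values on every array are given for members in the methods' selection, members past limma (with or without the slide as a block), members with separate groups and a difference of at least 0.4 in size, and the chains of laminins, nidogens and laminin or fibronectin receptors. Genes of the lists are named if selected or past limma. Values of 1 tested laminin chain, which stays in the counts, are not reported here. The lists were ligands and basement membrane, adhesion complex, other laminin receptors, and markers of cardiac muscle, endothelium, megakaryocytes, leukocytes, yolk sac, parietal and definitive endoderm, neural ectoderm and paraxial mesoderm. Alternatives were a block for the replicate number or for the slide, normexp background correction (offset 50), quantile normalization, the percentile over detected probes, the authors' ratios, other filters, the adjusted Tukey HSD test, 2 fold in place of 1.5 fold, the mean of all probes of a gene, the limma p in the selection, and leaving out each array in turn. Those for other laminin receptors were added after seeing the data.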

Additional observations from a re-analysis of the deposited data

How the results depend on the processing

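Most directions and counts of the members held under the alternatives tried. Itgb1bp2 was in the methods' selection under each of them except the adjusted Tukey HSD test, which gave it an adjusted p of 0.422. Its difference lay between 0.75 and 1.26, with a limma adjusted p between 0.00994 and 0.473. With the slide as a block, its difference of 1.26 passed the adjusted limma threshold, which gave 1 higher member in place of 0. With no filter on dim probes, the selection held 2 higher members, the other being Itgb6, which was not well above background on any array. With the limma p in the selection, 1 member (Itgb8) was lower, and 1 ligand or basement membrane gene was higher and 1 was lower.

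Of the adhesion complex, normexp background correction left 1 higher and 0 lower genes in the selection, and a threshold of 2 fold left 0 higher and 0 lower. Leaving out 1 array gave between 0 and 2 higher genes of the adhesion complex, between 0 and 1 higher ligands (1 without post-heartbeat 3) and between 0 and 2 higher other laminin receptors (2 without post-heartbeat 3). The causes were not tested.

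Whether the replicate numbers pair the samples could not be told. Deviations from the group means correlated at 0.65, −0.28 and 0.49 for numbers 1, 2 and 3, and 3 of 6 arrays correlated best with their own number. Both arrays numbered 1 were on the first slide, both numbered 3 on the second, and those numbered 2 on different slides. These correlations therefore cannot separate the replicate number from the slide. With the replicate number as a block, the selection held 1 lower member (Itgb8) and 0 higher adhesion complex genes, and past adjusted limma 144 of all probes were called in place of 27.

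Sign changes were limited to differences near 0. Itgam was at −0.01 and Itgb7 at 0.02 with the slide as a block, Itgb7 at 0.07 with quantile normalization, and Itgb1 at −0.07 as the mean of its probes. Leaving out 1 array gave between −0.10 and 0.18 for Itgb1, between −0.24 and 0.17 for Itgb7, between −0.04 and 0.13 for Itgam and between −0.27 and 0.01 for Itga11. It also moved differences that kept their sign: Itga5 lay between 0.08 (without post-heartbeat 1) and 0.65 (without post-heartbeat 3), Itga6 between 0.07 (without post-heartbeat 3) and 0.56 (without post-heartbeat 1), Lama5 between 0.07 (without pre-heartbeat 2) and 0.74 (without pre-heartbeat 1), Nid1 between −0.52 (without pre-heartbeat 1 or post-heartbeat 3) and −0.13 (without pre-heartbeat 2), and Itgb5 was at 0.27 without pre-heartbeat 2.

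Over all probes, limma called 27, against 312 with the slide as a block, 50 with normexp, 14 with quantile normalization, 13 with the authors' ratios, 1 with no filter, 0 in the adjusted Tukey HSD test and between 0 and 2 with 1 array left out. The methods' selection held 587 probes, against 281 with normexp, 232 at 2 fold, 860 with no filter, 855 with the limma p in the selection, and between 361 and 696 with 1 array left out. With 3 arrays per group and signals near background for 11 members, small differences were not detectable here.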
